A study of Homo sapiens with 6 samples.

Results

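Expression of the genes for glucose uptake, glycolysis and lactate export was examined in MiaPaCa-2 cells, an established human line of pancreatic ductal adenocarcinoma (PDAC), after glucose withdrawal. The members were 33 genes of the 60668 in the table, picked by symbol along the pathway and matched through their Ensembl identifiers: glucose transporters, the enzymes from hexokinase to lactate dehydrogenase with the enzymes that set fructose-2,6-bisphosphate, and the genes of lactate export. Cells of 1 line were kept for 48 h with 2.5 mM glucose (low glucose, 3 libraries) or with 25 mM glucose (control, 3 libraries), and the series' design text describes the replicates as independent and biological. The treatment text of the labels gives 2.5 mM for all 6 samples, and the 25 mM of the control comes from the design text. The labels name no other agent and no edited genotype for either group.

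Glucose enters cells through facilitative transporters of the SLC2A family, is trapped as glucose-6-phosphate by hexokinases, is split into triose phosphates after phosphofructokinase has committed it to glycolysis, and leaves the pathway as pyruvate. Lactate dehydrogenase reduces pyruvate to lactate and restores NAD+, and monocarboxylate transporters carry the lactate out with a proton. Most steps can be catalyzed by more than one isozyme from different genes, and PDAC cells are known for high glycolytic flux.

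Gene-assigned reads numbered 9741183, 10126218 and 10190154 in the control libraries and 10841656, 10595408 and 13733477 in the low-glucose libraries, and values are given in this order throughout. For low glucose this is replicate 1, replicate 2 and the library whose column the labels do not tie to a sample. A normalized count is the number of reads divided by the size factor of the library, which the authors had applied, and TPM is a level per length computed from the reads and the merged exon length of each gene. Values of one gene are compared as normalized counts, and levels of different genes only as TPM. Merged exon length can exceed the main transcript by unequal factors across genes, so levels and shares of different genes depend on the length used. The epithelial keratins KRT8 and KRT18 and vimentin (VIM) were high in every library, PTPRC, CD3E, INS, PRSS1 and CPA1 had 0 reads in all, and PECAM1 had at most 3. COL1A2 was at 1916 to 2872 normalized counts, while COL1A1 was at 2.96 to 13.5 and CD14 at 10.6 to 48.1. Because these were bulk samples, a lower level in every cell and fewer cells with a high level cannot be told apart. Among the 9 markers of other cell types, COL1A2 fell by 0.52 and CD14 by 1.19 on the log2 scale. KRT8 and KRT18 fell by 1.01 and 0.74, and VIM rose by 0.42. The exons of KRT8 and KRT18 are listed as sharing 525 bases on opposite strands, and 45.6% of the main VIM transcript lies in exons of the opposite strand, so these values are uncertain. The part of these marker shifts in the results was not tested.

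Counts of genes that share exons need care in this table. The study lists RSEM, a read quantifier, among its software, but the strand setting used for counting is not given in the sources used here, although the library kit marks strand. Of 110 genes that lie wholly inside the exons of a protein-coding gene on the opposite strand (the outer gene having a mean of at least 1000 reads), 71 held at least 10% as many reads as the outer gene, with a median of 13.7%. Of 175 genes that lie wholly inside such exons on the same strand, 164 held 0 reads. With the strand setting unknown, reads from exons shared with the opposite strand cannot be assigned to 1 gene with certainty. Whether they come from transcripts of that strand or from counting without regard to strand was not tested. The larger overlaps are given beside the members they touch.

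Of the 33 members, 31 reached a mean of at least 1 normalized count and were tested with limma. In low glucose 4 rose (SLC2A6, HK2, PFKFB2 and ENO2), 10 fell (HK1, GPI, TPI1, PGAM1, BPGM, ENO1, PKM, LDHA, SLC16A1 and SLC16A3) and 17 did not pass the threshold, an adjusted p of 0.05. Among all 21101 genes tested, 30.9% were called, 14.7% as higher and 16.2% as lower in low glucose. The members called higher were 12.9% of those tested, close to the background, and the members called lower were 32.3%. This background includes genes with few reads, and the members were not compared with genes of like expression. With edgeR, whose low-count filter left 15322 genes, 3200 genes were called higher and 3354 lower. Of the 30 members tested there, 5 were higher and 10 lower. Log2 differences (low glucose minus control) are given with their standard error (SE), and their median was -0.19 over the 31 members and 0.05 over all genes tested. When libraries were scaled by their totals, 15 members were called, 5 higher and 10 lower, while the calls over all genes moved from 3111 higher and 3417 lower to 3937 higher and 2646 lower. Without a trend of variance with expression in the model, 8 members were called, 3 higher and 5 lower, and HK1, HK2, GPI, BPGM, PKM and SLC16A3 were the 6 that missed the threshold, with adjusted p-values of 0.0501 to 0.0686.

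**Figure D1:**
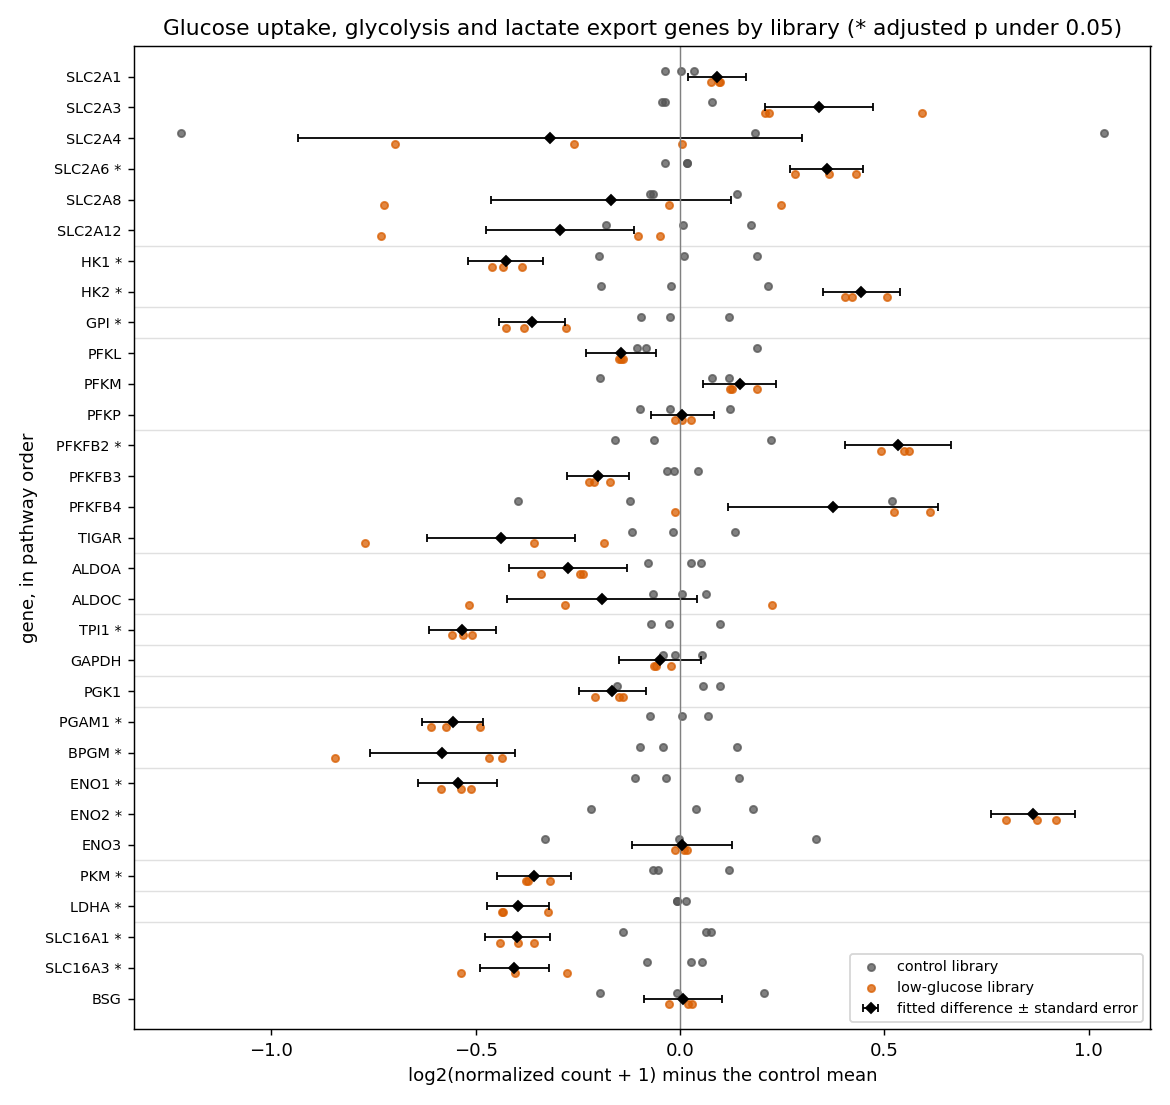
The horizontal axis gives log2(normalized count + 1) minus the control mean for the 31 tested genes in pathway order, grey points are control libraries, orange points low-glucose libraries, and diamonds the fitted difference with its standard error; asterisks mark an adjusted p under 0.05. From TPI1 to SLC16A3 the called genes lay left of 0 except ENO2 at 0.86, and SLC2A6, HK2 and PFKFB2 lay to the right.

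Together the 33 members made up 1.63%, 1.67% and 1.63% of all TPM in control and 1.37%, 1.37% and 1.38% in low glucose. Every low-glucose library was below every control library (exact permutation test, two-sided p = 0.1), and 0.1 is the smallest p that 3 against 3 libraries allow, here and for every share or sum of TPM given for a step. TPM sums to a fixed total, and on its scale for 13769 genes averaging 20 or more normalized counts the median difference was -0.09 on the log2 scale, against -0.02 for normalized counts. Levels per length spanned the pathway unevenly. GAPDH stood highest, at 8269 ± 218 TPM in control and 7656 ± 43.6 TPM in low glucose, followed by ENO1 at 2056 ± 186 TPM in control and 1347 ± 28.6 TPM in low glucose and TPI1 at 1909.7 ± 107 TPM in control and 1263 ± 9.94 TPM in low glucose. In control ENO1 and TPI1 lay within their spread of each other, in low glucose ENO1 was above TPI1 by more than the spread, and PKM came next at 1010.3 ± 70.5 TPM in control and 755 ± 23.8 TPM in low glucose. The distances and order among ENO1, TPI1 and PKM depend on the length used. Their merged lengths are 5216, 2700 and 8572 bases, against 1781, 1351 and 2305 for the main transcripts, and the spread between libraries does not cover this. The lowest detected members were SLC2A4 and FBP1, and LDHB had 0 reads in all 6 libraries.

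**Figure D2:**
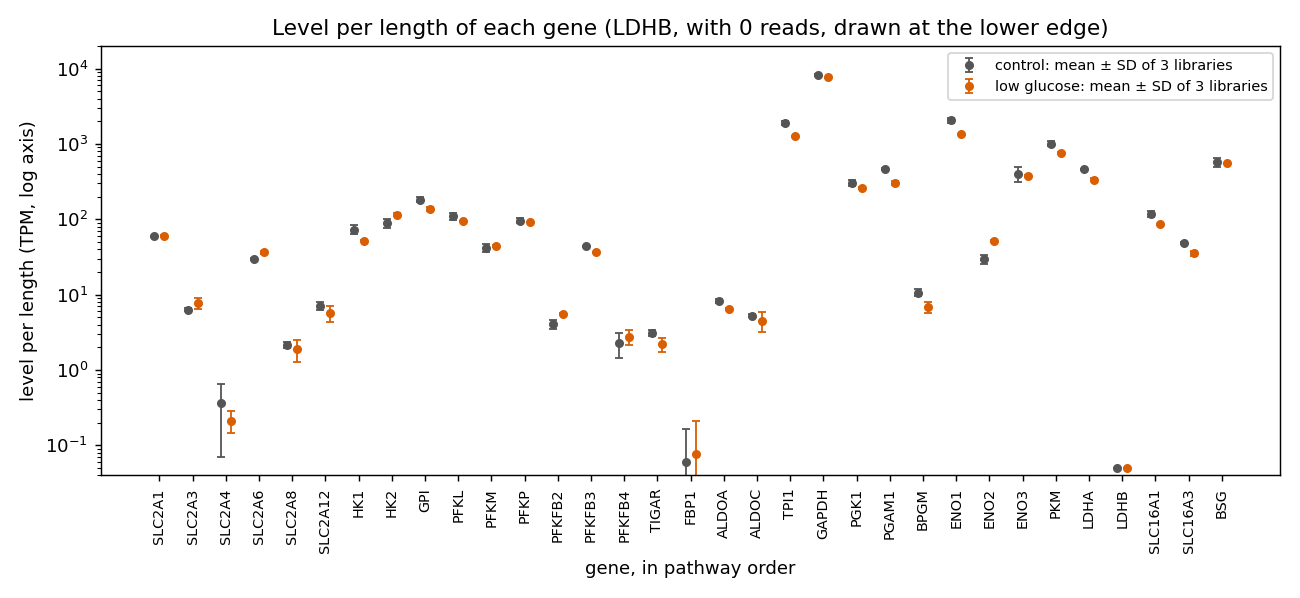
The vertical log axis gives the level per length in TPM (mean ± SD, n = 3) of the 33 genes in pathway order, grey for control and orange for low glucose. GAPDH, ENO1, TPI1 and PKM stood highest in both groups, and LDHB is drawn at the lower edge because it had 0 reads.

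Reference promoter sequence is shown for ENO1 and ENO2, the enolase isozymes that moved in opposite directions, for HK2, the hexokinase that rose, and for PGAM1, the member with the smallest adjusted p among those that fell. Each run holds the 250 bases before a start listed in RefSeq (GRCh38.p14), 5′ to 3′ on the strand of the gene, and capitals mark ACGTG and GCGTG, cores of the hypoxia response element, on either strand (CACGT and CACGC when read from the other strand). HK2 has 2 listed starts, of which 1 is shown.
ENO1 (chr1:8878687-8878936, minus strand): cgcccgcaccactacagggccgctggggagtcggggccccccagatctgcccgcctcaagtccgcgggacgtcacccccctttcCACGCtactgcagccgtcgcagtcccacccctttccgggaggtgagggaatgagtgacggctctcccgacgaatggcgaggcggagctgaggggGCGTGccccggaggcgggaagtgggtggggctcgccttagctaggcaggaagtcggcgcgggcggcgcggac
ENO2 (chr12:6914330-6914579, plus strand): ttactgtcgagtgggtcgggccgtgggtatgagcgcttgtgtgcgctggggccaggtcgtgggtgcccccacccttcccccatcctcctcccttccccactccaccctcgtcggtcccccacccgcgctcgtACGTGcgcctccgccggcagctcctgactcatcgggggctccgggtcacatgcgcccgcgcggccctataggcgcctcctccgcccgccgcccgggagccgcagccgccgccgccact
HK2 (chr2:74833877-74834126, plus strand): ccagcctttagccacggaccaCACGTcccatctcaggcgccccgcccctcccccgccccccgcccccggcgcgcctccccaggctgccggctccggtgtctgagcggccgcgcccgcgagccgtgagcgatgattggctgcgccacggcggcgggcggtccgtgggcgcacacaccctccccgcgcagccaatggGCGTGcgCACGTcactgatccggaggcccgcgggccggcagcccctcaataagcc
PGAM1 (chr10:97427568-97427817, plus strand): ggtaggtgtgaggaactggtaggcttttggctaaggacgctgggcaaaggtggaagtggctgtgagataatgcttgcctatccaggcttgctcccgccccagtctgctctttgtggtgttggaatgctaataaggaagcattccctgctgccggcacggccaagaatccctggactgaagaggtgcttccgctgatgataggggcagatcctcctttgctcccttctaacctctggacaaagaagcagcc

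The ENO1 window holds 2 matches to GCGTG and 0 to ACGTG, the ENO2 window 1 match to ACGTG, the HK2 window 2 matches to ACGTG and 1 to GCGTG, and the PGAM1 window none of either. The windows are not alike in place. That of HK2 ends at the start of the gene in Gencode, while those of ENO1, ENO2 and PGAM1 lie inside the Gencode bounds. The PGAM1 window begins at 97427568 and the gene at 97426191, and sequence before that gene start was not examined. Promoter windows were found for 29 of the 33 members, 56 windows in all, because a gene can have several starts. ACGTG was present in 19 of these 56 windows, against 18.5% of all 35116 windows of the same length, and GCGTG in 18, against 32.2%. The E-box CACGTG, which contains ACGTG, was present in 7 of the 56 windows, against 6.34% of all, and the ER stress element in 0, against 0.074% (26 windows). The windows with ACGTG belonged to 16 genes, both ones that rose (ENO2, HK2) and ones that fell (BPGM, GPI, LDHA, SLC16A3, TPI1). Most of the 16 (ALDOA, ALDOC, BSG, GAPDH, PFKFB3, PFKM, PFKP, PGK1 and TIGAR) were not called in either direction. A match gives letters only and was not tested as a site.

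Among the glucose transporters, SLC2A6 rose and SLC2A1, the main basal transporter (GLUT1), did not pass the test. SLC2A6 (GLUT6, a transporter found largely on intracellular membranes; ENSG00000160326.14, chr9:133471094-133479127) was at 353, 340.0 and 353 normalized counts in control and at 449, 470.2 and 424 in low glucose. All low-glucose libraries lay above all control libraries, and SLC2A6 rose by 0.36 in log2 units (SE 0.09, adjusted p = 0.00701). Without low glucose replicate 2 its adjusted p was 0.0525. SLC2A1 was at 1279, 1313 and 1342 normalized counts in control and at 1382, 1402 and 1403 in low glucose. These groups did not overlap either, and the difference on the log2 scale was 0.09 (standard error 0.07, adjusted p = 0.375). SLC2A1 has 14.7% of its main transcript inside exons of an opposite-strand gene for which no value was used here.

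SLC2A3 (GLUT3, a high-affinity transporter) was at 149, 148 and 162 normalized counts in control and at 178, 177 and 231 in low glucose. The last library stood above the other two of its group, and the difference on the log2 scale was 0.34 (standard error 0.13, adjusted p = 0.0640). SLC2A3 passed the threshold with library-size scaling (adjusted p = 0.0276), with edgeR on the recovered reads (0.0347) and without the control library of 10190154 reads (0.0439). SLC2A12 (GLUT12) was at 132, 116 and 149 in control and at 78.9, 122 and 127 in low glucose with overlap, and the difference on the log2 scale was -0.29 (standard error 0.18, adjusted p = 0.244). Its value is uncertain because 2852 of the 5572 bases of its main transcript are shared with TBPL1 on the opposite strand, itself at -0.36 (adjusted p = 0.0279). SLC2A8 (GLUT8) had 22 to 35 reads and SLC2A4 (GLUT4, the insulin-responsive transporter of muscle and fat) 1 to 8, with log2 differences of -0.17 (standard error 0.29, adjusted p = 0.709) and -0.32 (standard error 0.62, adjusted p = 0.740).

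Per length, SLC2A1 held 44.3 ± 0.527% in control and 36.4 ± 1.19% in low glucose of the summed level of all transporter genes measured (including genes outside the 33 members), and SLC2A6 held 22.1 ± 0.514% in control and 21.9 ± 0.615% in low glucose. The share of SLC2A1 was lower in all 3 low-glucose libraries (exact permutation p = 0.1). That denominator includes SLC5A2, at 15.9 ± 0.143% in control and 23.2 ± 1.09% in low glucose, which shares 1390 bases of exon with RUSF1 on the opposite strand and held 47.6% to 61.1% as many reads as RUSF1, itself higher by 0.76 (adjusted p = 1.14e-05). When transporters whose exons an opposite-strand gene with at least 20% as many reads shares were left out, the share of SLC2A1 was 59.6 ± 0.531% in control and 54.0 ± 1.29% in low glucose, that of SLC2A6 was 29.7 ± 0.738% in control and 32.5 ± 0.959% in low glucose and that of SLC2A3 was 6.34 ± 0.213% in control and 6.91 ± 1.24% in low glucose. The summed transporter level was 135 ± 2.25 TPM in control and 168 ± 3.47 TPM in low glucose (exact permutation test, two-sided p = 0.1). The log2 ratio of this sum was 0.31, and 0.17 with those genes left out.

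At the hexokinase step HK1 and HK2 moved in opposite directions, and the groups overlapped in the summed level. HK1, the widely expressed mitochondrial hexokinase (ENSG00000156515.23, chr10:69269984-69401884), was at 1670.3, 1891 and 1448 normalized counts in control and at 1229, 1268 and 1207 in low glucose. Every low-glucose library was below every control library, and HK1 fell by 0.43 in log2 units (SE 0.09, adjusted p = 0.00276). HK2, the inducible isozyme of muscle and tumors (ENSG00000159399.9, chr2:74834127-74893359; promoter above), was at 1709.6, 2016 and 1518 in control and at 2466, 2299 and 2325 in low glucose. Here the order was turned, and HK2 rose by 0.44 in log2 units (SE 0.09, adjusted p = 0.00250). Neither gene shares exons with a gene that has reads. Both calls were lost without the variance trend (adjusted p = 0.0667 for HK1 and 0.0686 for HK2).

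Within each library the ratio of HK2 to HK1 reads, which no scaling factor touches, was 1.02, 1.07 and 1.05 in control and 2.01, 1.81 and 1.93 in low glucose. The control library of 10126218 reads was highest for both genes among controls, and its ratio was close to those of the other two. Per length, HK2 held 41.1 ± 1.20% in control and 53.8 ± 0.443% in low glucose of the summed level of the glucose-phosphorylating enzymes, and HK1 held 33.8 ± 0.746% in control and 24.2 ± 1.04% in low glucose (exact permutation p = 0.1 for each). The rest was HKDC1, at 12.7 ± 0.852% in control and 11.9 ± 0.856% in low glucose, and ADPGK, an ADP-dependent kinase of glucose, at 12.3 ± 1.02% in control and 10.04 ± 0.567% in low glucose. HK3 was near 0. These shares rest on merged lengths of 6876 bases for HK1 and 5918 for HK2, whereas their main transcripts have 3602 and 5626. Which of HK1 and HK2 led in control therefore depends on the length used. The summed level was 216 ± 24.9 TPM in control and 214 ± 7.67 TPM in low glucose (exact permutation test, two-sided p = 0.9), and the log2 ratio of the sum ranged from -0.10 to 0.07 when 1 library was left out.

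**Figure D3:**
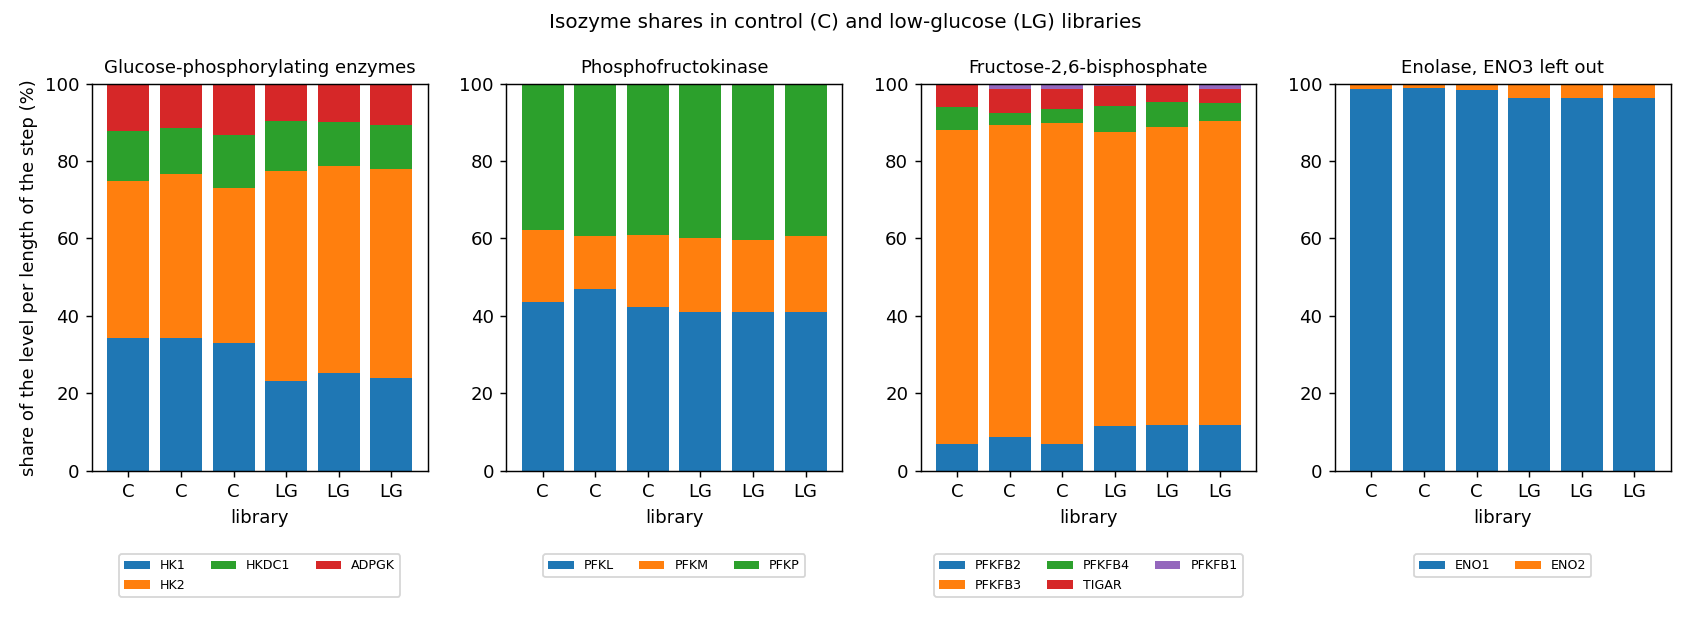
Each bar is 1 library (C, control; LG, low glucose), split into the percent of the summed TPM of the step that each isozyme held; isozymes under 0.5% in both groups are not drawn, and ENO3 is left out of the enolase bars. In the first panel the HK2 segment averaged 41.1% in control and 53.8% in low glucose, and in the last the ENO2 segment averaged 1.45% and 3.71%. These percentages depend on the merged exon length used for TPM.

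GPI, which converts glucose-6-phosphate to fructose-6-phosphate (ENSG00000105220.17, chr19:34359480-34402413), was at 6348, 7012 and 6047 normalized counts in control and at 4809, 4955 and 5318 in low glucose. The groups did not overlap, and GPI fell by 0.36 in log2 units (SE 0.08, adjusted p = 0.00348). The call was lost without the variance trend (adjusted p = 0.0596). Of its main transcript, 13.1% is shared with a same-strand gene that had 0 reads. Whether reads of the shared part are missing from the GPI count was not tested. Its level was 183 ± 13.9 TPM in control and 136 ± 7.95 TPM in low glucose.

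No phosphofructokinase isozyme passed the test at the committed step. PFKL, the liver-type subunit, was at 3072, 3709 and 3022 normalized counts in control and at 2936, 2942 and 2954 in low glucose. The control library of 10126218 reads stood above the rest, and the difference on the log2 scale was -0.14 (standard error 0.09, adjusted p = 0.222). PFKP, the platelet-type subunit, was at 2318, 2702 and 2440.5 in control and at 2489, 2528 and 2461 in low glucose, with overlap and a log2 difference of 0.01 (standard error 0.08, adjusted p = 0.964). PFKM, the muscle-type subunit, was at 1060.5, 877 and 1091 in control and at 1094, 1098 and 1145 in low glucose, with a log2 difference of 0.15 (standard error 0.09, adjusted p = 0.243). PFKM is uncertain, since 516 bases of its exons are shared with SENP1 on the opposite strand, which fell by 0.49 (adjusted p = 0.00161).

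Per length PFKL held 44.3 ± 2.48% in control and 41.0 ± 0.133% in low glucose of the step, PFKP 38.7 ± 0.808% in control and 39.9 ± 0.527% in low glucose and PFKM 17.0 ± 2.87% in control and 19.1 ± 0.451% in low glucose. PFKL and PFKP were the leading isozymes in every library, with PFKM below both. The summed level was 249 ± 13.9 TPM in control and 232 ± 2.41 TPM in low glucose (exact permutation test, two-sided p = 0.1).

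The bifunctional enzymes and TIGAR set fructose-2,6-bisphosphate, the main allosteric activator of phosphofructokinase, and PFKFB2 was the member of this group that rose. PFKFB2, the heart-type bifunctional enzyme (ENSG00000123836.15, chr1:207034366-207081024), was at 121, 158 and 129 normalized counts in control and at 200.1, 199 and 191 in low glucose. All low-glucose libraries were above all control libraries, and PFKFB2 rose by 0.53 in log2 units (SE 0.13, adjusted p = 0.00593). It shares 315 bases of exon with YOD1 on the opposite strand, whose log2 difference was -0.41 (adjusted p = 0.0607), opposite in sign to that of PFKFB2. The ratio of PFKFB2 to YOD1 reads was 0.818, 1.06 and 1.12 in control and 2.31, 1.78 and 1.71 in low glucose.

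PFKFB3, the inducible isozyme with high kinase activity, was at 871, 882 and 918 in control and at 791, 769.5 and 763 in low glucose. Although the groups did not overlap, the difference on the log2 scale was -0.20 (standard error 0.08, adjusted p = 0.0588), and of the alternatives run it passed in 1, without the control library of 10126218 reads (0.0291). PFKFB4 had 30 to 71 reads, with overlap and a log2 difference of 0.38 (standard error 0.26, adjusted p = 0.297). TIGAR, a fructose-2,6-bisphosphatase induced by p53, was at 95.3, 106 and 88.8 in control and at 84.7, 75.1 and 56.1 in low glucose, and the difference on the log2 scale was -0.44 (standard error 0.18, adjusted p = 0.0804). Of its main transcript, 20.8% is shared with a same-strand gene at 0 reads, and whether reads of that part are missing from the TIGAR count was not tested. PFKFB3 held 81.5 ± 1.14% in control and 77.2 ± 1.30% in low glucose of the summed level per length of the group and PFKFB2 7.49 ± 1.04% in control and 11.8 ± 0.179% in low glucose (exact permutation p = 0.1 for each). FBP1, the gluconeogenic fructose-1,6-bisphosphatase, had 0 to 2 reads per library and could not be compared at this depth.

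ALDOA and ALDOC, the aldolases that split fructose-1,6-bisphosphate, had 89 to 108 and 33 to 71 reads. ALDOA was at 108, 106 and 98.4 normalized counts in control and at 87.5, 87.9 and 81.8 in low glucose, without overlap, and the difference on the log2 scale was -0.27 (standard error 0.14, adjusted p = 0.170). ALDOC was at 43.7, 47.9 and 46.0 in control and at 31.7, 37.5 and 53.8 in low glucose, with a log2 difference of -0.19 (standard error 0.23, adjusted p = 0.583). Neither count can be read as the level of its gene. Of the 1640 bases of the main ALDOA transcript, 1472 (89.8%) are also exon of ENSG00000285043 on the same strand, which had 23 to 33 reads, and ENSG00000274904, a lncRNA inside ALDOA exon on the opposite strand, held 941 to 1378 reads. That lncRNA fell by 0.41 (adjusted p = 0.00552). ALDOC shares 296 bases with ENSG00000265168 on the opposite strand, which held 25.6% to 30.3% as many reads.

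TPI1, which interconverts the triose phosphates (ENSG00000111669.15, chr12:6867119-6870948), was at 16773, 16266 and 18272 normalized counts in control and at 11827, 12004 and 11597 in low glucose. The low-glucose libraries were close together and all below control, and TPI1 fell by 0.53 in log2 units (SE 0.08, adjusted p = 2.04e-04). Its adjusted p stayed between 6.36e-11 and 0.0181 over the 13 alternatives. On the TPM scale its level was 1909.7 ± 107 TPM in control and 1263 ± 9.94 TPM in low glucose.

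GAPDH, which makes NADH and 1,3-bisphosphoglycerate and often serves as a reference transcript, had the highest counts and did not pass the test. GAPDH was at 63806, 68163 and 65181 normalized counts in control and at 63018, 64733 and 62806 in low glucose. The groups overlapped, the difference on the log2 scale was -0.05 (standard error 0.10, adjusted p = 0.758), and with library-size scaling the sign turned to 0.03. Of its main transcript, 422 of 1285 bases are shared with ENSG00000269968, a lncRNA on the opposite strand that held 26301 to 41202 reads, 46.2% to 49.7% of the GAPDH count in the same library. That lncRNA had a log2 difference of 0.01 (adjusted p = 0.927).

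PGK1, which forms the first ATP of the pathway, was at 5711, 4933 and 5869.5 in control and at 4752, 4979.7 and 4946 in low glucose. The control library of 10126218 reads lay among the low-glucose libraries, and the difference on the log2 scale was -0.17 (standard error 0.08, adjusted p = 0.142). Without that library the difference was -0.24 with an adjusted p of 0.000935.

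Both members at the mutase step, PGAM1 and BPGM, fell. PGAM1, the glycolytic phosphoglycerate mutase (ENSG00000171314.9, chr10:97426191-97433444; RefSeq window above), was at 3726, 4113 and 3934 normalized counts in control and at 2637, 2571 and 2795 in low glucose. The groups stood well apart, and PGAM1 fell by 0.56 in log2 units (SE 0.07, adjusted p = 6.41e-05), with adjusted p-values of 2.87e-10 to 0.0167 over the 13 alternatives. BPGM, which makes 2,3-bisphosphoglycerate (ENSG00000172331.12, chr7:134646811-134679816), was at 98.7, 86.9 and 83.5 in control and at 64.4, 49.4 and 65.9 in low glucose, and it fell by 0.58 in log2 units (SE 0.18, adjusted p = 0.0219). The call of BPGM was lost without low glucose replicate 2 (0.111), without the control library of 9741183 reads (0.086), with DESeq2 (0.0563) and without the variance trend (0.0501). Processed pseudogenes of PGAM1 held at most 1.65% of its reads.

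PGAM1 held 94.2 ± 0.412% in control and 89.7 ± 0.579% in low glucose of the step per length (exact permutation p = 0.1). The rest was mostly PGAM2, whose 837 bases lie wholly inside DBNL exons on the opposite strand. With PGAM2 left out, the share of PGAM1 was 97.7 ± 0.284% in control and 97.8 ± 0.289% in low glucose (exact permutation test, two-sided p = 0.8). The summed level of the step was 494 ± 16.5 TPM in control and 338 ± 20.2 TPM in low glucose (exact permutation test, two-sided p = 0.1).

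At the enolase step ENO1 fell and ENO2 rose, and the rise of ENO2 was the largest log2 difference among the 31 members tested. ENO1, the widely expressed enolase (ENSG00000074800.16, chr1:8861000-8879190; promoter above), was at 34654, 39202 and 32864 normalized counts in control and at 23653, 24877 and 24466 in low glucose. Every low-glucose library was below every control library, and ENO1 fell by 0.54 in log2 units (SE 0.10, adjusted p = 5.98e-04). ENO2, the neuronal-type enolase also found in many tumors (ENSG00000111674.9, chr12:6913745-6923698; promoter above), was at 434, 363 and 478 in control and at 735, 800.2 and 775 in low glucose. All low-glucose libraries were higher, and ENO2 rose by 0.86 in log2 units (SE 0.10, adjusted p = 2.07e-05). Both calls held in all 13 alternatives, with ENO1 between -0.60 and -0.46 and ENO2 between 0.76 and 0.95 on the log2 scale. ENO1-AS1, on the strand opposite ENO1, had 1 to 10 reads, and ENO2 shares no exon with another gene.

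ENO2 was a small part of the step in both conditions. Its reads were 1.25, 0.927 and 1.46% of those of ENO1 in control and 3.11, 3.22 and 3.17% in low glucose. Per length, ENO2 held 1.45 ± 0.316% in control and 3.71 ± 0.0619% in low glucose of the sum of ENO1 and ENO2 (exact permutation p = 0.1). ENO3, the muscle enolase, was at 5588, 4454 and 7055 normalized counts in control and at 5665, 5549.7 and 5639.6 in low glucose, with a log2 difference of 0.00 (standard error 0.12, adjusted p = 0.983). This value is uncertain because 111 bases of ENO3 exon are shared with PFN1 on the opposite strand, a gene for the actin-binding protein profilin. ENO3 reads were 46.9% to 50.1% of PFN1 reads in every library, although ENO3 itself ranged from 4454 to 7055 normalized counts among controls. With ENO3 included, ENO1 held 82.6 ± 4.40% in control and 75.8 ± 0.525% in low glucose of the step. The summed level without ENO3 had a log2 ratio of -0.58 (low glucose over control), and with it -0.48.

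**Figure D4:**
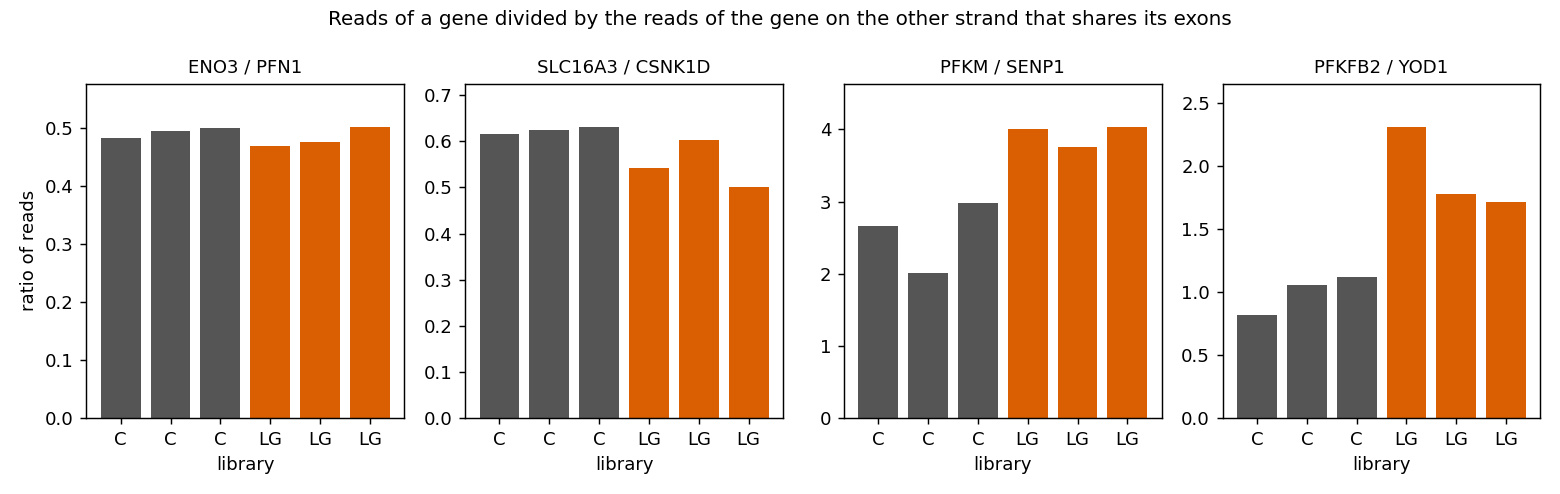
Bars give the reads of a member divided by the reads of the opposite-strand gene that shares its exons, for each library (grey and C, control; orange and LG, low glucose), on linear axes from 0. ENO3 kept a ratio of 0.469 to 0.501 to PFN1 in all 6 libraries, while PFKFB2 went from 0.818 to 1.12 of YOD1 in control to 1.71 to 2.31 in low glucose.

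PKM, the pyruvate kinase of most tissues and tumors (ENSG00000067225.18, chr15:72199029-72231819), was at 27626, 31174 and 27381 normalized counts in control and at 22074, 22144 and 23002 in low glucose. The groups did not overlap, and PKM fell by 0.36 in log2 units (SE 0.09, adjusted p = 0.00795). The call was lost without low glucose replicate 1 (0.064), without replicate 2 (0.067) and without the variance trend (0.0529). The table holds 1 value for the gene, so the PKM1 and PKM2 splice forms were not separated. PKLR, the liver and red cell enzyme, held 0.103% of the step per length in control and 0.116% in low glucose.

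LDHA, which reduces pyruvate to lactate (ENSG00000134333.14, chr11:18394560-18408425), was at 9196, 9329 and 9194 normalized counts in control and at 6846, 6837 and 7389.9 in low glucose. The control libraries were close together and all above the low-glucose libraries, and LDHA fell by 0.40 in log2 units (SE 0.08, adjusted p = 0.00107). Its adjusted p lay between 1.06e-06 and 0.0306 over the 13 alternatives. LDHB had 0 reads in every library, and a count of 0 allows up to 3 reads. Of its main transcript, however, 997 of 1303 bases (76.5%) are also exon of ENSG00000285854 on the same strand, which had 0 reads as well, and expression of LDHB cannot be judged from the listed 0. LDHA held 99.4 ± 0.233% in control and 98.2 ± 0.183% in low glucose of the measured step.

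Of the export genes, both transporters fell and their chaperone did not pass the test. SLC16A1 (MCT1, which carries lactate in either direction; ENSG00000155380.11, chr1:112911847-112957593) was at 2599.7, 2620.4 and 2259 normalized counts in control and at 1832, 1940.1 and 1889.7 in low glucose. The groups did not overlap, and SLC16A1 fell by 0.40 in log2 units (SE 0.08, adjusted p = 0.00152). SLC16A1-AS1, on the opposite strand, held 4.0% to 9.06% as many reads and rose by 0.43 (adjusted p = 0.032). SLC16A3 (MCT4, the exporter typical of glycolytic cells; ENSG00000141526.16, chr17:82217934-82261129) was at 1421, 1530.3 and 1561 in control and at 1136, 1242 and 1036 in low glucose, and it fell by 0.41 in log2 units (SE 0.08, adjusted p = 0.00207). The call of SLC16A3 was lost without the variance trend (0.0523), and 482 of the 2599 bases of its main transcript are shared with CSNK1D on the opposite strand, which fell by 0.22 (adjusted p = 0.03) and held 159% to 199% as many reads.

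BSG (basigin), the glycoprotein that brings both transporters to the cell surface, was at 8372, 7344 and 9699.8 in control and at 8587, 8529 and 8255 in low glucose. The groups overlapped, with a log2 difference of 0.01 (standard error 0.10, adjusted p = 0.969). BSG-AS1, which shares 140 bases of exon on the opposite strand, held at most 0.869% as many reads. Per length, SLC16A1 held 16 ± 2.72% in control and 12.6 ± 0.428% in low glucose of the step, SLC16A3 6.59 ± 0.675% in control and 5.23 ± 0.373% in low glucose and BSG 76.9 ± 3.20% in control and 81.3 ± 0.532% in low glucose. The summed level was 749.8 ± 71.7 TPM in control and 679.7 ± 9.88 TPM in low glucose (exact permutation test, two-sided p = 0.3). This sum is mostly BSG, which is not itself a transporter, and does not stand for the level of the transporters. SLC16A1 alone was at 118 ± 10.7 TPM in control and 85.9 ± 1.91 TPM in low glucose. SLC16A3 was at 49.1 ± 1.65 TPM in control and 35.6 ± 2.83 TPM in low glucose. Merged lengths were 6347 bases for SLC16A1 and 9236 for SLC16A3, against main transcripts of 3753 and 2599. How far apart the transporters stand therefore depends on the length used.

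The 30 other isozymes and transporters of these steps were tested where they reached the same mean: 18 did, of which 6 rose and 0 fell with limma (33.3% called, against 30.9% over all genes, 14.7% higher and 16.2% lower). At an unadjusted p under 0.05 there were 9 higher and 1 lower (ADPGK), and edgeR and DESeq2 each called 6 higher and 0 lower. The median log2 difference of the 18 was 0.62. The largest rises were LDHD, a D-lactate dehydrogenase, at 1.40 (standard error 0.40, adjusted p = 0.0153), SLC2A10 (GLUT10), at 1.39 (standard error 0.23, adjusted p = 3.45e-04), and SLC5A2, at 0.92 (standard error 0.09, adjusted p = 3.84e-06), which shares exons with RUSF1 as given above. LDHD was at 19.1, 5.57 and 18.2 normalized counts in control and at 33.7, 42.5 and 29.6 in low glucose. SLC2A10 was at 33.6, 39.0 and 27.8 normalized counts in control and at 102, 107 and 64.4 in low glucose. Both were low, SLC2A10 at 2.08 ± 0.369% in control and 4.80 ± 1.14% in low glucose of the transporters without shared exons. PGAM2, GAPDHS and SLC2A11, which also rose, share exons with the opposite strand.

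Among 17 genes of branches and of the reversal of glycolysis, 15 were tested, 1 rose and 2 fell (20% called, against 30.9% over all genes), with a median log2 difference of 0.05, the value over all genes. PCK2, the mitochondrial phosphoenolpyruvate carboxykinase, was at 939, 908 and 1074 normalized counts in control and at 2594, 2427 and 2377 in low glucose. It rose by 1.34 in log2 units (SE 0.08, adjusted p = 5.65e-08), more than any of the 33 members, while PCK1 and G6PC1, the cytosolic carboxykinase and the glucose-6-phosphatase of liver, had 0 reads. GPD2, the mitochondrial glycerol-3-phosphate dehydrogenase, fell by 0.59 in log2 units (SE 0.11, adjusted p = 7.97e-04). MPC2, a subunit of the mitochondrial pyruvate carrier, fell by 0.80 in log2 units (SE 0.09, adjusted p = 1.35e-05), but 575 bases of its exons are shared with DCAF6 on the opposite strand, which fell by 0.72. MPC1, the other subunit, had a log2 difference of 0.00 (standard error 0.13, adjusted p = 0.994). Without the control library of 10126218 reads 7 of the 15 were called, 4 higher and 3 lower.

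All 8 regulators of glycolytic genes were tested, of which 2 rose and 3 fell (62.5% called, against 30.9% over all genes), with a median log2 difference of -0.10. TXNIP, a glucose-induced inhibitor of glucose uptake and a target of the MLXIP and MLXIPL sensors, was at 1164, 1086 and 1138 normalized counts in control and at 534, 528 and 493 in low glucose, and it fell by 1.12 in log2 units (SE 0.08, adjusted p = 2.38e-07). MLXIPL (ChREBP) rose by 1.31 in log2 units (SE 0.18, adjusted p = 8.61e-05), and MYC rose by 0.45 in log2 units (SE 0.08, adjusted p = 3.97e-04). CASC11, which shares 194 bases with MYC on the opposite strand, held 21.2% to 27.0% as many reads and rose by 0.59. HIF1A, the oxygen-regulated subunit of hypoxia-inducible factor, fell by 0.37 in log2 units (SE 0.08, adjusted p = 0.00188). HIF1A-AS1, which shares 133 bases with HIF1A on the opposite strand, held 12.1% to 16.1% as many reads and fell by 0.40 (limma adjusted p = 0.00889). MLX fell by 0.27 in log2 units (SE 0.10, adjusted p = 0.0491), with overlapping groups and an adjusted p at the edge of the threshold, and 775 of its bases are shared with PSMC3IP on the opposite strand. The call of MLX was lost in 12 of the 13 alternatives (adjusted p up to 0.235 with limma, edgeR or DESeq2). It held only without the control library of 10126218 reads (limma adjusted p = 0.00122). TXNIP, MLXIPL, MYC and HIF1A were called in all 13.

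Genes outside glycolysis that hypoxia is known to induce were set beside the members, since many glycolytic genes are targets of the same factor. Of 15 such genes 14 were tested, 7 rose and 1 fell, with a median log2 difference of 0.35, and the 14.7% called higher over all genes is the background to this count. NDRG1 rose by 1.59 in log2 units (SE 0.12, adjusted p = 2.96e-07), VEGFA rose by 1.54 in log2 units (SE 0.08, adjusted p = 1.27e-08) and MXI1 rose by 1.26 in log2 units (SE 0.15, adjusted p = 2.42e-05). ENSG00000272114, which shares 188 bases with VEGFA on the opposite strand, held 10.7% to 12.7% as many reads and also rose by 1.54. GBE1, the glycogen branching enzyme, fell by 0.50 in log2 units (SE 0.08, adjusted p = 2.22e-04), and CA9 had 0 reads. Of the members, LDHA, PGK1, ENO1 and TPI1 had log2 differences of -0.40, -0.17, -0.54 and -0.53, against 0.86 for ENO2 and 0.44 for HK2. These were picked after their values were seen, and other members were mixed. SLC2A1 was at 0.09, PFKFB4 at 0.38, GAPDH at -0.05, PFKFB3 at -0.20 and SLC16A3 at -0.41. Without the low-glucose library of 13733477 reads 5 of the 14 were called, 4 higher and 1 lower. Activity of any factor was not measured.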

How the data were processed

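Total RNA of MiaPaCa-2 cells was sequenced from directional libraries, and per the labels the submitters' processing notes name CASAVA, FastQC, Trim Galore, STAR 2.7.0e, DESeq2 and the build hg38. The study's software includes RSEM; which tool counted the deposited reads, its strand setting and its annotation are not given in the sources used here. What was deposited is a scaled signal, in which the authors divided gene counts by 1 size factor per library. In all 6 libraries 100% of values were whole multiples (within 0.01) of the value of 1 read, so reads were recovered. The labels tie 2 of the 6 columns to low glucose replicates 1 and 2. The other 4 were assigned to groups because the column names form 2 runs of 3. The rule that defined the members also names which run is control and which is low glucose, and the labels do not state it. Of 60668 identifiers, 99.4% matched Gencode v44, which gave gene positions, exon lengths and overlaps.

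Normalized counts were tested as log2(value + 1) where a gene averaged 1 or more (21101 genes), using limma 3.58.1 in R 4.3.3 (lmFit, eBayes with trend, two-sided, Benjamini-Hochberg over all genes tested, threshold 0.05). TPM, step totals and isozyme shares used merged exon length and exact permutation tests. The p-values measure the spread between these libraries. The members and the gene lists were chosen with earlier results of these data known. All 33 members were named, and from each other list up to 3 called genes with the largest rise and up to 3 with the largest fall, and other genes were named after their values were seen. Alternatives were TMM or library-size scaling, no low-value filter, a pseudocount of 0.1, no variance trend, edgeR 4.0.16 and DESeq2 1.42.0 on the recovered reads, each library left out, and, for shares and totals, the longest annotated transcript or no division by length. Leaving out isozymes that share exons with an opposite-strand gene holding at least 20% as many reads was chosen after seeing the data. On the recovered reads edgeR called 6554 of 15322 genes. The fits were tested on simulated data. Python 3.11.15, pandas 2.3.3, numpy 2.4.6, scipy 1.17.1 and matplotlib 3.10.9 were used. Promoter sequence was read from a RefSeq table (GRCh38.p14) that held 29 of the 33 members. One gene of the other isozymes is not reported here.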

Additional observations from a re-analysis of the deposited data

How the results depend on the processing

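No paired analysis was possible because the labels do not tie the control columns and 1 low-glucose column to numbered replicates. Over the alternatives, 373 of 402 recomputed log2 differences of single members kept their direction and their side of the threshold, 12 lost the call, 5 gained it and 12 changed sign, the last all in members that were not called. Members called numbered 14, 8 without the variance trend and 11 to 16 when 1 library was left out; the cause was not tested. Over all genes 6528 were called, and 4090 without the variance trend. Leaving out 1 library gave 3 to 7 calls among genes of branches and reversal (3 with all libraries) and 5 to 8 among hypoxia-inducible genes (8 with all libraries). The log2 differences that changed sign when 1 library was left out ranged as follows: SLC2A4 -0.93 to 0.20, SLC2A8 -0.38 to 0.11, PFKP -0.043 to 0.067, ENO3 -0.16 to 0.17 and BSG -0.092 to 0.11. With DESeq2 the values of ENO3 and BSG were -0.021 and -0.0026, and with library-size scaling that of GAPDH was 0.032. Differences in share (percentage points, low glucose minus control) that changed sign in the same way were SLC2A3 -0.561 to 0.21, SLC2A6 -0.564 to 0.0814, ALDOA -4.9 to 2.17, ALDOC -2.98 to 4.21 and BPGM -0.244 to 0.00995, and the log2 ratio of the hexokinase total ranged from -0.0952 to 0.0706. Reads without division by length gave 0.041 for SLC2A3 and 0.13 for SLC2A6. With isozymes of shared exons left out, the values were 0.568 for SLC2A3, 2.75 for SLC2A6, 0.0866 for PGAM1 and 0.0229 for the hexokinase total. Members with under 100 reads in every library, such as SLC2A4, SLC2A8, PFKFB4 and BPGM, are limited by depth.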

Other observations

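TPI1 and ENO2 are 42.8 kb apart on chromosome 12, and GAPDH lies 329 kb from TPI1. Along this stretch GAPDH had a log2 difference of -0.05, TPI1 fell by 0.53 and ENO2 rose by 0.86 in low glucose. SPSB2, which shares 14 bases of exon with TPI1 on the opposite strand and held 0.615% to 2.07% as many reads, rose by 0.96 (limma adjusted p = 5.91e-05).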
